A study of Mus musculus with 21 samples.

Results

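Among the 8 tumors injected with a STING agonist, 5 had a median normalised signal over all 750 panel genes of 110 or more and 3 had a median under 110. These are called here the high-median and the low-median agonist groups, and they hold 8 of the 21 libraries of the series. The tumors were chosen by these medians, which are values of the readout itself, so every comparison between the groups, and of each with sham tumors, is given as a description with no test. The tumors nearest to the split had medians of 143.4 in the high-median group and 96.4 in the low-median group. The groups had been proposed as strong and weak responders. No response other than the panel was measured in the files used here, so the groups are named by the rule alone.

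The series compared tumors of Lewis lung carcinoma (LLC), a mouse lung cancer line, grown in the right flank of male C57BL/6 mice. Both agonist groups were wild-type hosts whose established tumor was injected with the agonist, which the series description gives as cGAMP, the cyclic dinucleotide that activates STING. The 9 wild-type sham tumors received PBS in the same way. A further 4 sham tumors grew in hosts homozygous for the goldenticket allele of Tmem173, labelled TMEM173(gt/gt), which lack working STING while the implanted cancer cells keep their own gene. The labels name lung as the tissue, whereas by the protocol the tumors grew in the flank, and nothing in them says whether each library is a separate animal. No agonist-injected STING-deficient tumor was analysed here, and no dose or interval to harvest was used.

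STING is an adaptor on the endoplasmic reticulum that binds cyclic dinucleotides made when DNA is found in the cytosol. Its kinase TBK1 then activates the factor IRF3, which induces type I interferon, and NF-kB, which induces inflammatory cytokines such as TNF. Interferon acts back through its receptor and JAK1 to raise interferon-stimulated genes. In tumors the pathway is known for antigen presentation by dendritic cells and for chemokines that attract T and NK cells. Total RNA of whole tumors was counted, so fewer cells of a type and less RNA per cell cannot be told apart in any value below.

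The medians of the 5 high-median tumors were 169, 143.4, 154, 150.7 and 218, against 96.4, 61.5 and 73.0 in the low-median tumors, 57.0 to 71.8 in wild-type sham tumors and 35.2 to 60.8 in STING-deficient sham tumors. The group means were 167 ± 29.99 (SD, n = 5), 77.0 ± 17.8 (n = 3), 64.2 ± 5.31 (n = 9) and 47.2 ± 10.5 (n = 4), in the same order of groups. The lowest low-median tumor lay inside the wild-type sham range, and the other two lay above it. The deposited values lie near whole multiples of a step in each library, and the counts estimated from that step, which no file states, summed to 351566 to 763976 per high-median library, 257356 to 293504 per low-median library and 256573 to 389302 per wild-type sham library. Of the 5 high-median libraries, 3 (agonist replicates 6 to 8) are the only ones in the series written with 2 decimals. Whether they were measured or scaled apart from the others was not tested. Only some results are also given without them, so a result given once may still differ.

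**Figure D1:**
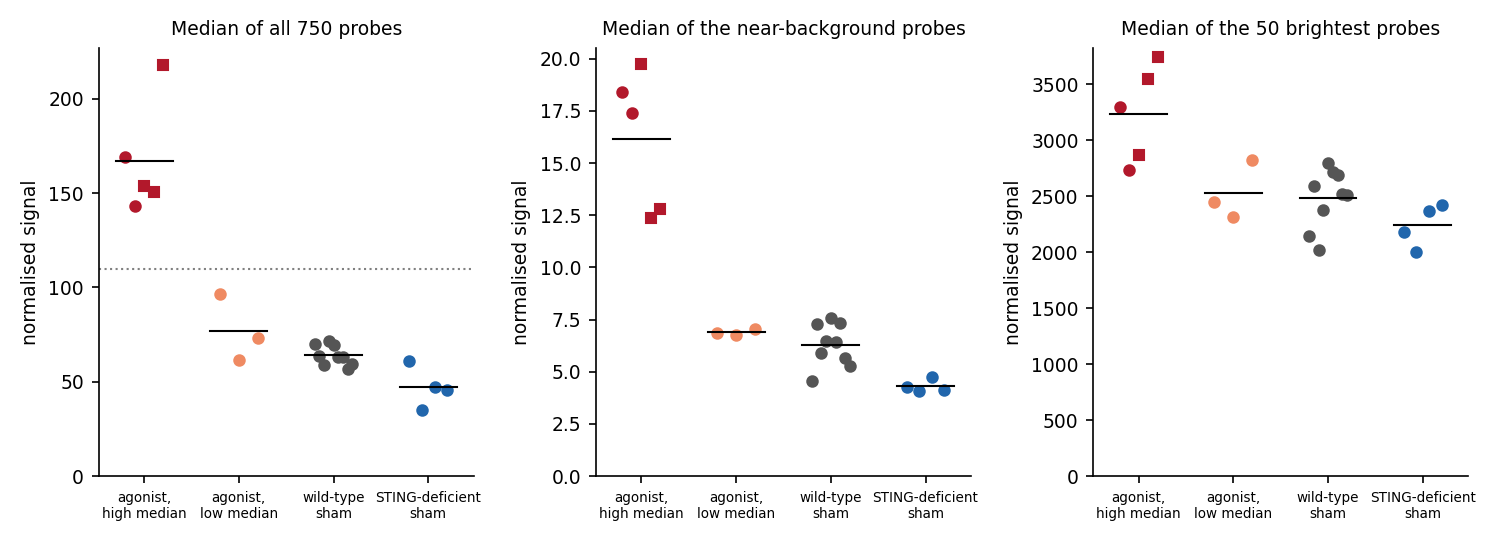
Normalised signal per library, with the group mean as a line; squares are the 3 agonist libraries written with 2 decimals and the dotted line is the split at 110. The 61 probes near background differed between the agonist groups as the panel median did, with 12.4 to 19.7 in the high-median group and 6.78 to 7.05 in the low-median group, while the 50 brightest probes were closer.

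Under the authors' scaling the difference between the agonist groups ran across nearly the whole panel. Over the 689 probes with at least 20 units in at least 4 libraries, the median difference, high-median minus low-median, was 1.25 on the log2(value + 1) scale, a ratio of 2.38, with quartiles of 0.67 and 1.68. In all, 641 of 689 probes (93.0%) had the higher mean in the high-median group. For 321 probes, 46.6% of those tested, all 5 high-median tumors lay above all 3 low-median tumors, and Mmp9 was the only probe (0.145%) with the opposite order. With TMM scaling, which takes most probes as alike between libraries, the median difference was 0.12 and 30 probes lay wholly above. Against wild-type sham tumors the median difference was 1.50 in the high-median group and 0.15 in the low-median group. Without the 3 libraries written with 2 decimals the median high-median minus low-median difference was 1.05, and for those 3 alone it was 1.22.

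Over all 750 probes, with no filter on low values, the difference was smaller for brighter probes. It was a median log2 difference of 1.63 over the 94 probes with a wild-type sham mean under 10, 1.37 over the 125 probes between 20 and 50, 0.84 over the 126 between 200 and 500, and 0.34 over the 55 probes of 1000 or more. The 61 probes that failed the low-value filter had a median difference of 1.19, below that of the probes of low level as a whole, and the higher mean in the high-median group for 54 of 61. Their median was 16.1 ± 3.36 units in the high-median group, 6.89 ± 0.141 units in the low-median group and 6.28 ± 1.02 units in wild-type sham tumors (SD, n = 5, 3 and 9). Subtraction of the near-background level was run as an alternative setting. It was not among the 2 settings that moved the panel's median difference of 1.25 beyond its spread between libraries. The level itself moved with the panel median, and its part in the difference was not tested further. Because of this, each gene is also given relative to the panel, as its log2 difference minus the panel's 1.25. A negative relative difference can belong to a gene that was higher in the high-median group by less than the panel was.

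**Figure D2:**
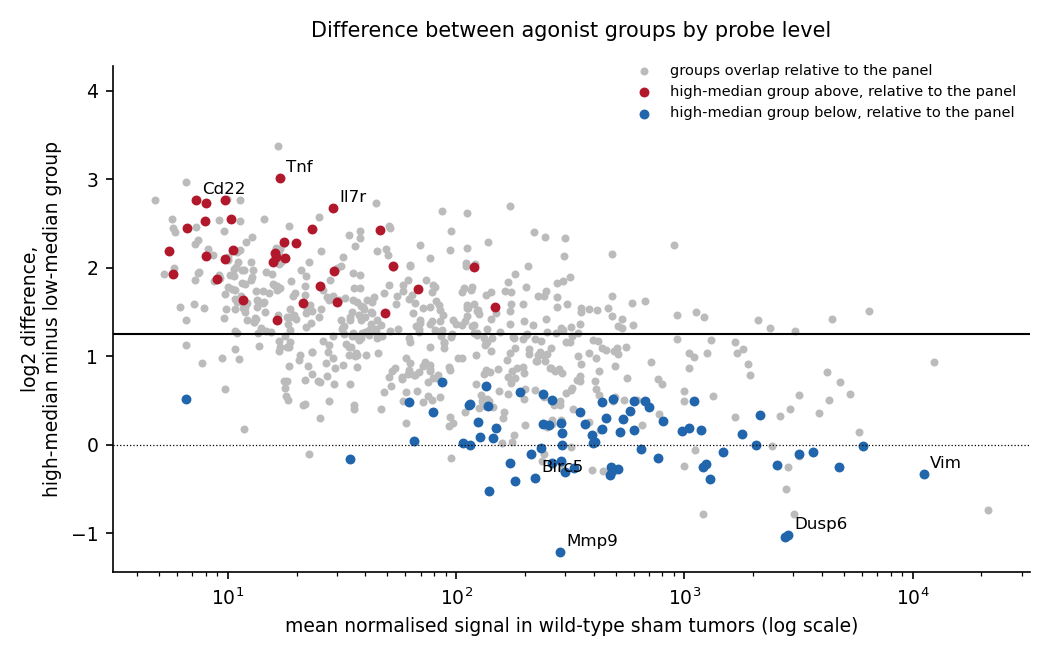
Log2 difference, high-median minus low-median agonist group, for 689 probes against their mean normalised signal in wild-type sham tumors (log axis); the solid line is the panel median of 1.25. Colored points are probes whose agonist groups did not overlap after each library was centred on its panel median, 33 above and 77 below.

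After each library was centred on its panel median, 33 probes (4.79%) lay wholly above and 77 (11.2%) wholly below in the high-median group. Since the split chose the libraries, these shares are a background for the counts that follow and not evidence of a difference. The counts depend on the libraries: they were 191 and 134 without the 3 libraries written with 2 decimals, which leaves 2 high-median tumors, and 71 and 122 without agonist replicate 2. That high-median library stood apart from the rest. Its centred profile correlated with those of the other 7 agonist libraries at 0.58 to 0.82 (Pearson, across 689 probes of the same panel), against 0.82 to 0.97 among those 7.

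Tmem173 itself, which encodes STING, had 87.7, 40.6, 154, 188 and 249.97 units in the 5 high-median tumors, against 65.0, 60.99 and 72.5 units in the low-median tumors and 41.8, 53.7 and 77.8 units (lowest, median and highest) in wild-type sham tumors. Of the high-median tumors 1 lay below every low-median tumor, so the groups overlapped. Its log2 difference was 0.87 ± 0.46 (SE) and its relative difference -0.39, and without agonist replicate 2 these were 1.25 and 0.00, as for the panel. STING-deficient sham tumors had 42.6 to 69.4 units, which is inside the wild-type sham range, so the probe does not check the allele.

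The nucleic acid sensors and the interferon genes differed about as much as the panel. The 15 tested sensing genes had a median relative difference of -0.02, and 8 of 15 lay wholly above, against 46.6% of all probes. Zbp1, a sensor of Z-form nucleic acids, had 1611, 340.2, 908, 1577 and 2649 units in the high-median tumors, against 810.0, 269 and 456 units in the low-median tumors and 169, 291 and 441 units in wild-type sham tumors. Ddx58, which encodes the RNA sensor RIG-I, had 728, 327, 563, 780.5 and 1302 units in the high-median tumors and 662, 321 and 369 units in the low-median tumors. In both genes the groups overlapped, and agonist replicate 2 had the lowest high-median value.

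Among the 11 interferons and receptors the median relative difference was 0.05, and it was 0.57 without the 3 libraries written with 2 decimals. Ifnb1, the type I interferon induced through STING, was singled out after its values were seen. It had 60.8, 239, 32.6, 33.7 and 18.6 units in the high-median tumors, against 4.56, 5.81 and 10.1 units in the low-median tumors and 5.85, 9.68 and 21.0 units in wild-type sham tumors. The agonist groups did not overlap, but 1 high-median tumor lay inside the sham range and 2 low-median tumors lay just below it. Jak1, the kinase of interferon receptors, had 1274, 1456, 1494, 1695 and 2053 units in the high-median tumors and 1176, 1102 and 1076 units in the low-median tumors. It was the reverse case, wholly above in plain values and wholly below relative to the panel, with a relative difference of -0.76. Ifngr1, a receptor chain for interferon-gamma, had 1605, 823, 1162, 1251 and 2982 units in the high-median tumors and 916, 527 and 589 units in the low-median tumors, which overlapped at 1 tumor.

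The 32 tested interferon-stimulated genes had a median relative difference of 0.00, with 8 of 32 wholly above in plain values, against 46.6% of all probes. Relative to the panel none lay wholly above, against 4.79% of all probes, and 2 of 32 lay wholly below, against 11.2% of all probes. Relative to tested probes of like level in sham tumors their median was 0.19, and relative to the panel it was 0.13 without agonist replicate 2. The 2 members with the highest mean signal carry an interferon response motif in the promoter, and the 250 bases before their start sites are shown to locate it (RefSeq, GRCm38.p6, minus strand, written 5′ to 3′ along the gene). Capitals mark GAAANNGAAA, searched on both strands, and in Bst2 a pair of matches overlaps.
Ifitm2, chr7:140955962-140956211: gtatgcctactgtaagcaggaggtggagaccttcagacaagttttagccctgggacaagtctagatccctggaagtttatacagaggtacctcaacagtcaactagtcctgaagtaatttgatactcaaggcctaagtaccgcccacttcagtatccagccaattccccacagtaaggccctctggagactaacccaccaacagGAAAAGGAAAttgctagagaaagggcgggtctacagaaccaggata
Bst2, chr8:71537473-71537722: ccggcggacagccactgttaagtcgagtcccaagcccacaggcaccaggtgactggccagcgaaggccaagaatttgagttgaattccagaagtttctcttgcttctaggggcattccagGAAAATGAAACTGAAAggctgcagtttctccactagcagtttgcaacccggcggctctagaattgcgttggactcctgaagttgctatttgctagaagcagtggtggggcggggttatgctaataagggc
Of 26 list members found in the promoter table, 13 held the motif in the 300 bases searched, against 9.41% of 510 matched panel genes and 3.44% of all 32851 promoters. The 13 with the motif had a median relative difference of 0.05 and the 13 without it -0.23. The match is a description of the letters, and the members with it were not tested against those without.

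Ifitm2, a membrane protein that blocks virus entry, had 9211, 6985, 6956, 7516 and 14715 units in the high-median tumors, against 6054, 5117 and 4806 units in the low-median tumors and 4219, 4803 and 5600.1 units in wild-type sham tumors. All high-median tumors lay above the other agonist tumors, by a ratio of 1.64. Bst2, which encodes the virus tether tetherin, had 3152, 1115, 1852, 2575 and 5237 units in the high-median tumors, against 2498, 1245 and 1497 units in the low-median tumors and 869, 1209.9 and 1834 units in wild-type sham tumors. Here the agonist groups overlapped, and 1 low-median tumor lay above the whole sham range.

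The 12 genes with the highest relative differences among the 23 eligible were mostly probes of low signal. They were picked from probes whose agonist groups do not overlap, so their separation is a part of that choice. Cd22, Il10 and Cd1d2 also passed the low-value filter through high-median tumors alone. Tnf, the inflammatory cytokine, had 67.9, 1439.8, 64.2, 82.1 and 57.0 units in the high-median tumors, against 22.8, 8.71 and 15.1 units in the low-median tumors and 12.8, 16.4 and 21.3 units in wild-type sham tumors. Its relative difference of 1.77 rests partly on agonist replicate 2, without which it was 0.88. Il10, a cytokine that restrains inflammation, had 39.6, 135, 42.4, 36.0 and 38.4 units in the high-median tumors and 16.0, 5.81 and 5.03 units in the low-median tumors, with the highest value again in that library.

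Il7r, the receptor for the lymphocyte survival cytokine IL-7, had 188, 218, 136, 308 and 277 units in the high-median tumors, against 54.8, 17.4 and 37.2 units in the low-median tumors and 16.7, 29.6 and 41.0 units in wild-type sham tumors. Its ratio was 6.40, and no single library carried it. Klrc2, an activating NK cell receptor, had 195, 169.5, 162, 138 and 145 units in the high-median tumors, against 49.1, 12.6 and 38.3 units in the low-median tumors, a narrow range in the first group and a wider one in the second. Klrb1c, the NK1.1 antigen of NK cells, had 110.3, 96.4, 81.9, 56.2 and 66.3 units in the high-median tumors and 25.1, 15.5 and 14.1 units in the low-median tumors. Both NK receptors showed no overlap, as the choice required, with relative differences of 1.19 and 0.87. They do not stand for their list, where 6 of 14 tested NK cell markers had a positive relative difference and the median was -0.15.

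Cd22, an inhibitory receptor of B cells, had 53.7, 51.1, 78.0, 38.2 and 144 units in the high-median tumors, against 16.0, 6.78 and 6.04 units in the low-median tumors, of which 2 were at the near-background level. Irak3, a brake on Toll-like receptor signalling in myeloid cells, had 284, 254, 197, 249.7 and 537 units in the high-median tumors, against 63.9, 39.7 and 56.4 units in the low-median tumors and 27.6, 48.4 and 62.1 units in wild-type sham tumors. The low-median values of Irak3 overlapped sham and the high-median values did not. The rest were Hspb2, a small heat shock protein, Saa1, an acute-phase protein, Camp, the antimicrobial peptide of neutrophils, Cd1d2, a lipid-presenting molecule, and Pycard, the inflammasome adaptor. Their relative differences ran between 0.87 and 1.04, and their high-median means between 50.3 and 107 units.

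**Figure D3:**
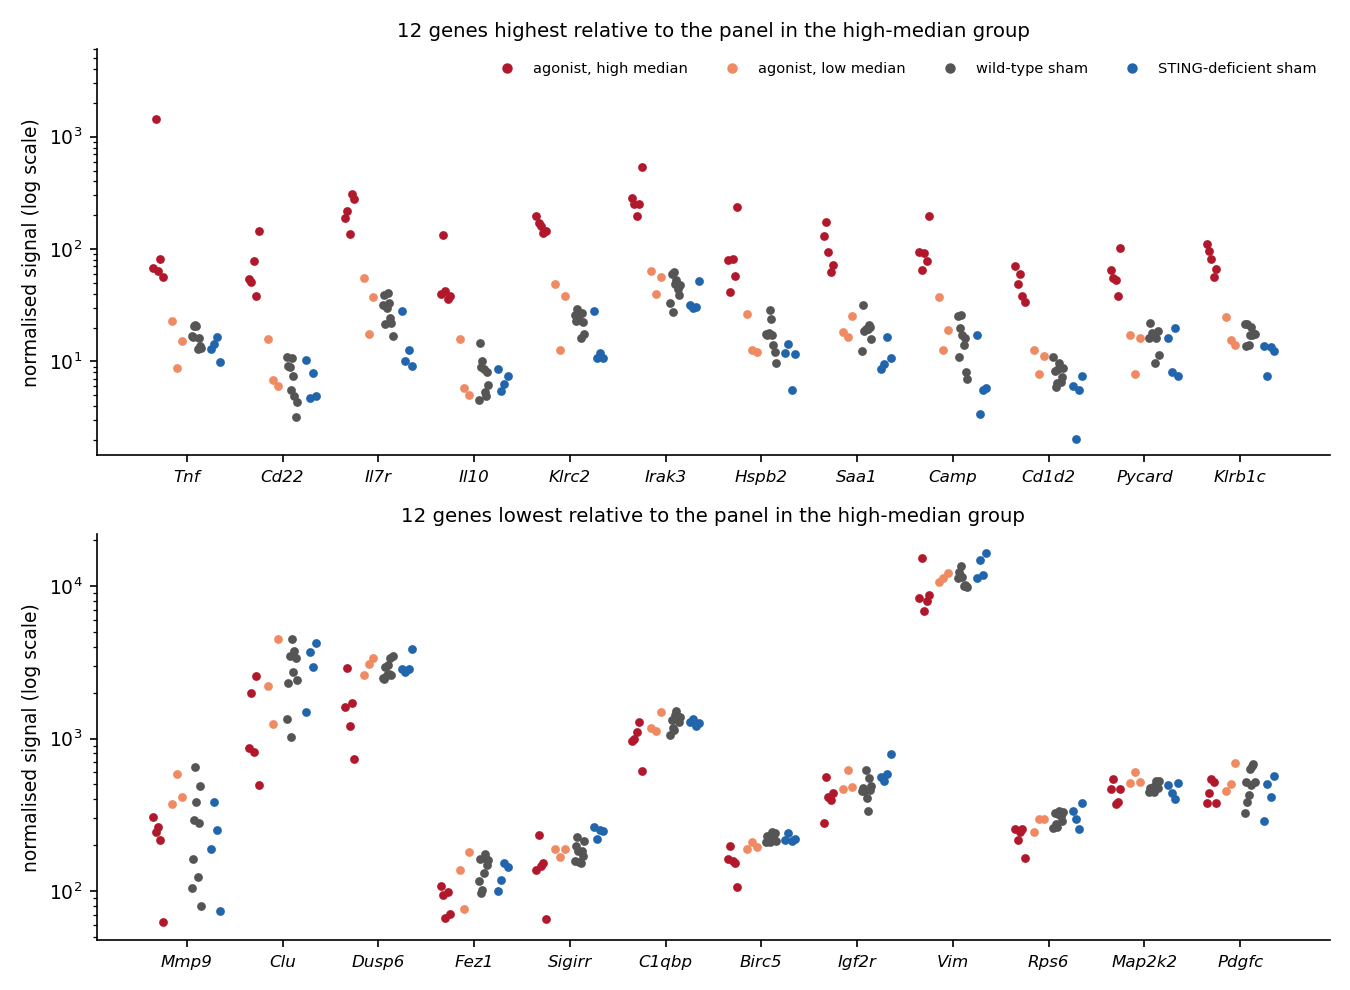
Normalised signal of each library (log axis) for the 12 highest and the 12 lowest genes relative to the panel, with the high-median agonist, low-median agonist, wild-type sham and STING-deficient sham groups from left to right within each gene. In the upper panel the high-median tumors stand alone; in the lower panel the high-median mean is the lower one for all 12 genes, by the most for Mmp9, Clu and Dusp6, and only for Mmp9 do the agonist groups not overlap.

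Lymphocyte lists other than NK cell markers had medians above the panel, and B cell markers had the highest of them. The median relative difference was 0.76 over 11 B cell markers, 0.41 over 10 cytotoxic effectors, 0.33 over 7 regulatory T cell markers and 0.30 over 19 T cell markers. Set against tested probes of like sham level, the same medians were 0.27, -0.04, -0.08 and -0.06. In plain values 10 of 11, 7 of 10, 5 of 7 and 13 of 19 lay wholly above, in the same order of lists, against 46.6% of all probes. The tested B cell markers had a median sham level of 11.1 units. Cd22 and Cd79b passed the low-value filter through high-median tumors alone. The B cell median and count are therefore partly set by the filter. NK cell markers had a median of -0.15, which became 0.10 without agonist replicate 2, and 8 of 14 lay wholly above; against probes of like level it was -0.12.

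Gzma, a granzyme of killer lymphocytes, had 734, 101, 413, 638 and 1238 units in the high-median tumors, against 283, 67.8 and 80.5 units in the low-median tumors and 24.6, 44.3 and 147 units in wild-type sham tumors. Agonist replicate 2 had the lowest value of its group and lay inside the low-median and the sham ranges. Klrk1, the activating receptor NKG2D, had 225, 49.9, 216, 258 and 360.4 units in the high-median tumors and 129, 55.2 and 105 units in the low-median tumors, again with that library lowest. Klrd1 (CD94) had 577, 235, 449, 522 and 696 units in the high-median tumors, against 363, 184 and 271 units in the low-median tumors and 75.8, 137 and 214 units in wild-type sham tumors. Klra2, an NK receptor of the Ly49 family, whose probes are uncertain among near-identical copies, had 431, 399, 467, 926 and 598 units in the high-median tumors and 456, 119 and 292 units in the low-median tumors. In all 4 genes the agonist groups overlapped.

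The T cell receptor subunit gene Cd3g had 168, 116, 132, 135 and 234 units in the high-median tumors, against 68.4, 31.9 and 81.5 units in the low-median tumors and 20.1, 29.6 and 58.5 units in wild-type sham tumors. Each group lay mostly above the next, and 2 low-median tumors were above all sham tumors. Cd2, an adhesion receptor of T and NK cells, had 182, 123, 132, 94.5 and 149.98 units in the high-median tumors and 74.2, 49.4 and 96.6 units in the low-median tumors, with overlap at 1 tumor. Ccr4, a chemokine receptor of regulatory T cells, had 962, 384, 576, 884 and 1388 units in the high-median tumors and 436, 172 and 215 units in the low-median tumors. Ctla4, the inhibitory receptor of activated and regulatory T cells, had 129, 127, 135, 70.8 and 75.6 units in the high-median tumors and 66.2, 38.7 and 39.3 units in the low-median tumors. Ccr4 overlapped between the agonist groups at 1 tumor each way and Ctla4 did not overlap. Among B cell genes, Btk, a kinase of B cell and myeloid signalling, had 238, 156, 171, 204 and 367 units in the high-median tumors and 119.8, 62.0 and 75.5 units in the low-median tumors. The agonist groups did not overlap in Btk, which with a relative difference of 0.13 followed the panel.

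Chemokine lists stayed near the panel. The 17 T cell attracting chemokines and receptors had a median relative difference of 0.11, and the 15 monocyte and neutrophil chemokines one of -0.13, which turned to 0.21 without agonist replicate 2. Cxcl10, the interferon-induced ligand of CXCR3, had 1642, 1941, 849.8, 1839 and 1887 units in the high-median tumors, against 1729, 293 and 781 units in the low-median tumors and 165, 373 and 929 units in wild-type sham tumors. The highest low-median tumor was among the high-median values. Ccl19, which draws dendritic cells and T cells through CCR7, had 5881, 9068, 6442, 10255 and 2685 units in the high-median tumors and 5892, 4070.0 and 7569 units in the low-median tumors, with full overlap. Ccl7, a monocyte chemokine, had 8326, 320.5, 2866, 3436 and 8991 units in the high-median tumors and 3876, 3220.0 and 2796 units in the low-median tumors, the lowest of all being agonist replicate 2. Ccl8, another monocyte chemokine, had 6875, 2694, 2799, 4519 and 5496 units in the high-median tumors, against 1869.8, 1783 and 1419 units in the low-median tumors and 1060.2, 2740.3 and 3708 units in wild-type sham tumors.

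Antigen presentation genes differed about as much as the panel. The 15 MHC class I genes had a median relative difference of 0.06 and the 9 MHC class II genes one of -0.22, but 0.53 relative to probes of like level. H2-D1, a classical class I heavy chain, had 10659.6, 6389, 7728, 8422 and 17530.5 units in the high-median tumors and 7025, 4213 and 5253 units in the low-median tumors. H2-T23, which encodes the non-classical Qa-1, had 4083, 1671, 2523, 3424 and 7639.8 units in the high-median tumors and 3079, 1050.4 and 1546 units in the low-median tumors. Both overlapped between the agonist groups, with agonist replicate 2 lowest among the high-median tumors.

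H2-Aa, a class II chain, had 6248, 1865, 8662, 6655 and 18927 units in the high-median tumors, against 4111, 2338 and 2704 units in the low-median tumors and 725, 1579 and 3149 units in wild-type sham tumors. Cd74, the class II invariant chain, had 6445, 4276, 5189, 3561 and 11495 units in the high-median tumors, against 3427, 2312 and 2671 units in the low-median tumors and 862, 1512 and 3114 units in wild-type sham tumors. Cd74 separated the agonist groups and H2-Aa did not. Cd86, a co-stimulatory ligand of dendritic cells, had 324, 323, 373, 508 and 578 units in the high-median tumors and 229, 109 and 165 units in the low-median tumors, without overlap. The related ligand Cd80 had 263, 634, 214, 306 and 236 units in the high-median tumors and 257, 122 and 304 units in the low-median tumors, with overlap. Over 11 dendritic cell markers and 14 co-stimulatory genes the median relative differences were 0.17 and 0.22, and without agonist replicate 2 they were 0.10 and -0.03.

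Among myeloid genes each list is described apart, and the lists were not tested against each other. The 11 neutrophil markers had a median relative difference of 0.64, 0.38 without agonist replicate 2, and 0.47 against probes of like level, with 7 of 11 wholly above, against 46.6% of all probes. Summed over the list the signal was 9587 to 31399 units in the high-median group, against 4419 to 5047 units in the low-median group and 3056 to 10090 units in wild-type sham tumors, so the lower end of the first range lay inside the last. S100a8, a calcium-binding alarm protein of neutrophils, had 6554, 24799.5, 12518, 6045 and 3353 units in the high-median tumors and 2599, 3465 and 3369.6 units in the low-median tumors. Itgb2, a leukocyte integrin chain, had 1114, 958, 754, 1284 and 1782 units in the high-median tumors and 629, 243 and 381 units in the low-median tumors, without overlap.

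The 20 macrophage and monocyte markers had a median relative difference of -0.01, which was 0.10 without agonist replicate 2 and 0.27 against probes of like level. Fcgr2b, an inhibitory antibody receptor, had 4526, 2133, 4052, 4804 and 5847 units in the high-median tumors and 2401, 1686 and 1741 units in the low-median tumors. Spp1, the matrix cytokine osteopontin made by tumor macrophages, had 13143, 22719, 11378, 28005 and 1545 units in the high-median tumors, against 13462, 18106 and 23806 units in the low-median tumors and 11566, 21212 and 27953 units in wild-type sham tumors. Agonist replicate 8 was far below all other tumors in Spp1. The 5 mast cell and basophil markers had a median of -0.53, and -0.78 against probes of like level. Of these, Fcer1g, an adaptor shared by many Fc receptors, had 1701, 1227, 1142, 1544 and 3376 units in the high-median tumors and 896, 483 and 545 units in the low-median tumors, while Fcer1a, the IgE-binding chain, had 169.7, 117, 239.8, 110.2 and 242 units in the high-median tumors and 112, 137 and 138 units in the low-median tumors.

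The 20 inflammatory cytokine and NF-kB genes had a median relative difference of 0.35, which was 0.17 without agonist replicate 2. Il1b, the inflammasome-processed cytokine, had 1522, 15751, 2163, 2106 and 792 units in the high-median tumors and 785, 517 and 1208 units in the low-median tumors. Ptgs2, the inducible cyclooxygenase, had 1929, 16587, 1742, 2175 and 269 units in the high-median tumors and 487, 728 and 1929 units in the low-median tumors. In both genes agonist replicate 2 was several times the next high-median tumor, and agonist replicate 8 was the lowest of its group. Among 12 checkpoint genes, with a median of -0.10, Cd274, which encodes PD-L1, had 826, 3233, 422, 1055 and 719.7 units in the high-median tumors, against 265, 129 and 396 units in the low-median tumors and 104, 210.0 and 378 units in wild-type sham tumors. Cd274 separated the agonist groups, at a ratio of 4.06. Cd276, the B7-H3 ligand found on cancer cells and stroma, had 219, 240.4, 226, 239.5 and 419.7 units in the high-median tumors and 213, 198 and 257 units in the low-median tumors, a relative difference of -1.02.

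**Figure D4:**
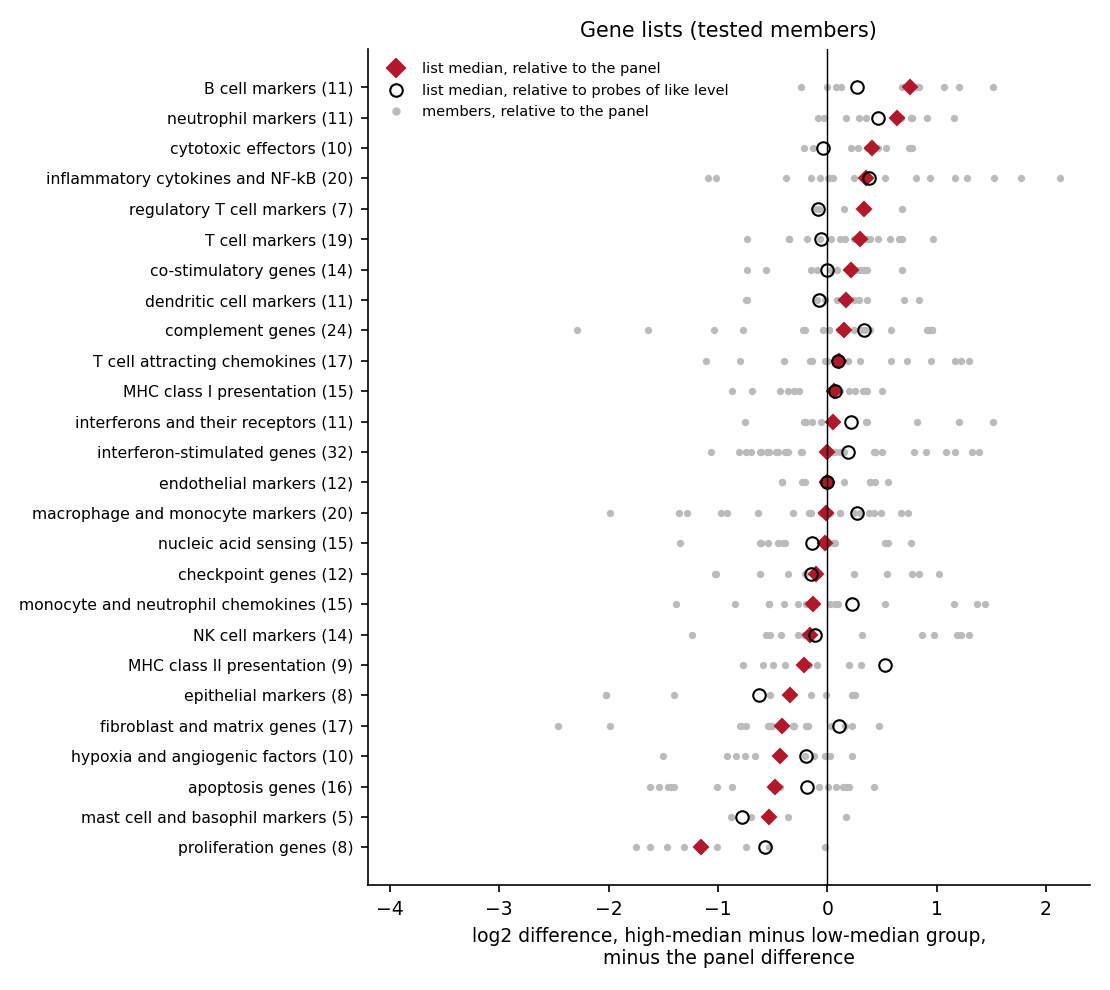
Relative log2 difference, high-median minus low-median agonist group minus the panel difference, of the tested members of 26 gene lists (grey) with the list median (diamond) and the median against probes of like wild-type sham level (open circle). B cell and neutrophil markers lie highest and proliferation genes lowest; most open circles lie nearer 0 than the diamonds for the lymphocyte lists.

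At the other end, the 12 genes lowest relative to the panel also had the lower mean log2 value in the high-median group in plain values. The plain ratio, high-median over low-median, was 0.43 for Mmp9, 0.49 for Clu and 0.49 for Dusp6, and it lay between 0.70 and 0.83 for the other 9. Vim, the intermediate filament of mesenchymal cells, had 8316, 15297, 6867, 7998 and 8785 units in the high-median tumors, against 10671, 11341 and 12218 units in the low-median tumors and 9904, 11279 and 13641 units in wild-type sham tumors. Rps6, a ribosomal protein, had 253, 217, 244, 256 and 165 units in the high-median tumors and 243, 298 and 296 units in the low-median tumors. Birc5, the mitotic protein survivin, had 163, 197, 158, 153 and 106 units in the high-median tumors, against 189, 209 and 195 units in the low-median tumors and 208, 221 and 242 units in wild-type sham tumors. Birc5 and Rps6 were the only 2 probes (0.29%) with every high-median tumor below every wild-type sham tumor in plain values.

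Mmp9, a matrix-degrading protease, had 305, 243, 262, 215 and 62.8 units in the high-median tumors, against 369.6, 585 and 413 units in the low-median tumors and 79.2, 281 and 649 units in wild-type sham tumors. It had the lowest relative difference, -2.46, but both groups lay inside the wide sham range or close to it. Dusp6, a phosphatase induced by and acting on ERK, had 1611, 2918, 1215, 1725 and 734 units in the high-median tumors, against 2615, 3084 and 3406 units in the low-median tumors and 2451, 2673 and 3498 units in wild-type sham tumors. Of the high-median tumors 4 lay below every sham tumor in Dusp6. Clu, the chaperone and complement inhibitor clusterin, had 863, 1977, 818, 2588 and 492.97 units in the high-median tumors and 2209.7, 1240.2 and 4472 units in the low-median tumors, with wide overlap in plain values. The others among the 12 lowest were Fez1, an adaptor of axonal transport, Sigirr, an inhibitory interleukin receptor, C1qbp, a mitochondrial protein that binds C1q, Igf2r, the receptor that clears IGF2, Map2k2, a kinase upstream of ERK, and Pdgfc, a growth factor. Their relative differences ran between -1.77 and -1.53.

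The 8 proliferation genes had the lowest list median, -1.16, and -0.57 against probes of like level; 3 of 8 lay wholly below relative to the panel, against 11.2% of all probes. Myc, the growth-driving transcription factor, had 1807, 9594, 1114, 1915 and 258 units in the high-median tumors and 1807, 1688 and 3595 units in the low-median tumors, so the high-median values reached both below and above the low-median ones. Tfrc, the transferrin receptor of dividing cells, had 764, 1084, 1137, 1423 and 656 units in the high-median tumors and 1249, 775 and 1490.0 units in the low-median tumors. The 16 apoptosis genes had a median of -0.48 with 4 wholly below, the 10 hypoxia and angiogenic factors one of -0.43 with 1 wholly below, and the 8 epithelial markers one of -0.34 with 1 wholly below. Casp1, the inflammasome caspase, had 648, 693, 797, 904 and 441 units in the high-median tumors and 749, 855 and 663 units in the low-median tumors, and the groups overlapped. Tnfrsf1a, the main TNF receptor, had 823, 733, 968, 941 and 2553 units in the high-median tumors and 641, 442 and 376 units in the low-median tumors. Anxa1, a phospholipid-binding protein, had 3434, 3404, 5530.3, 5725 and 4010.0 units in the high-median tumors and 4805, 5490.3 and 5108 units in the low-median tumors. Hif1a, the oxygen-regulated factor, has no value in agonist replicate 6; the other 4 high-median tumors had 3796, 4264, 2115 and 4129 units, and the low-median tumors 2591, 2544 and 3129 units.

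Summed over each list, epithelial and matrix signal did not separate the groups. The mean log2 value over the epithelial markers did, at 7.03 to 7.99 in the high-median group and 6.78 to 6.93 in the low-median group. Centred on the panel, the order turned, with -0.52 to 0.03 in the high-median group and 0.06 to 0.52 in the low-median group. Epithelial signal summed to 2775 to 6164 units in the high-median group, against 3254 to 5339 units in the low-median group and 3300 to 6033 units in wild-type sham tumors, and no marker was at 0. Cd9, a tetraspanin, had 1579.8, 4138, 1274, 1496 and 669.7 units in the high-median tumors and 1999.8, 2685 and 3352 units in the low-median tumors. Itga6, a laminin receptor chain, had 589.8, 1503, 687, 740.0 and 435 units in the high-median tumors and 853, 1303 and 1698 units in the low-median tumors. In both genes 4 of the 5 high-median tumors lay below all low-median tumors and agonist replicate 2 lay above most of them. The 17 fibroblast and matrix genes had a median of -0.41 and the 12 endothelial markers one of 0.00, which was 0.37 without agonist replicate 2. Col3a1, the collagen III chain, had 30706, 2389.6, 59219.7, 47836 and 135989 units in the high-median tumors, against 21435, 15844 and 12484 units in the low-median tumors and 6814, 12703 and 20679 units in wild-type sham tumors. Cd34, a marker of endothelial and progenitor cells, had 843, 271, 583, 765 and 3355 units in the high-median tumors and 536, 317 and 538 units in the low-median tumors. Thbd, endothelial thrombomodulin, had 475, 1108, 408, 418 and 326 units in the high-median tumors and 213, 255 and 386 units in the low-median tumors. Matrix signal summed to 47126 to 223832 units in the high-median group, against 42888 to 51848 units in the low-median group.

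The high-median group was mixed in inflammatory, complement and endothelial genes, and agonist replicate 2 differed most from the other 4. Relative to the panel it was higher for 18 of 20 inflammatory genes (median deviation 1.66) and lower for 16 of 24 complement genes (-1.40) and 11 of 12 endothelial markers (-1.13). By median deviation these are the highest and the lowest of the 26 lists. The 32 interferon-stimulated genes had a median deviation of -0.63 in it, with 26 of them lower. The share of all probes higher or lower in this library was not counted. The counts of members are therefore not read as results about these lists. The genes named next are among the most extreme by this deviation and were chosen after values were seen. Cxcl2, a neutrophil chemokine, had 12039.8 units in that library and 94.2 to 655 units in the other 4 high-median tumors, and Nlrp3, the inflammasome sensor, had 4080.2 units against 167 to 243 units. Cxcl12, a stromal chemokine, had 77.8 units in that library and 1309 to 7936 units in the others, and Col1a1, the collagen I chain, had 608 units against 11349.8 to 56074 units. Their own list was split: of 17 fibroblast and matrix genes 7 were higher and 10 lower in that library (median deviation -0.31). C1qb, the complement component made by macrophages, had 3394, 574, 3317, 4528 and 10477 units in the high-median tumors and 1449.9, 1001 and 950.4 units in the low-median tumors. Without that library the complement genes had a median relative difference of 0.60 in place of 0.15.

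The low-median group was set against wild-type sham tumors whose panel levels it overlapped. Against those 9 tumors 9 probes (1.31%) lay wholly above and 2 (0.29%) wholly below in the low-median group, compared with 321 (46.6%) above and 2 (0.29%) below in the high-median group. Of those 9, 8 also lay above sham in the high-median group, and both comparisons share the sham tumors. After centring on the panel, 4 probes (0.581%) lay above and 4 (0.581%) below in the low-median group, and 25 (3.63%) above and 82 (11.9%) below in the high-median group. Those above in the low-median group included Cxcr3, the chemokine receptor of activated T cells, and the chemokines Ccl17 and Ccl20, named here because the count is small.

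Cxcr3 had 73.5, 74.3, 59.2, 39.4 and 102 units in the high-median tumors, 37.6, 26.1 and 28.2 units in the low-median tumors and 15.7, 17.6 and 22.7 units in wild-type sham tumors. Ccl17, a ligand of CCR4 from dendritic cells, had 205, 149, 234, 111 and 422 units in the high-median tumors, 148, 63.9 and 66.4 units in the low-median tumors and 25.1, 48.4 and 62.4 units in wild-type sham tumors. All 3 low-median tumors were above the highest sham tumor in both genes, which is a part of how they were picked. Whether so few probes are more than chance would give was not tested. Ccl20, a ligand of CCR6, had 406, 158, 1981, 825 and 2399.7 units in the high-median tumors, 373, 243 and 359 units in the low-median tumors and 63.0, 117 and 169.6 units in wild-type sham tumors. Only agonist replicate 2 among all 8 agonist tumors was inside the sham range for Ccl20.

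By list, the median log2 difference of the low-median group from wild-type sham tumors was largest for MHC class II genes, at 0.70, then cytotoxic effectors, at 0.65, MHC class I genes, at 0.52, regulatory T cell markers, at 0.51, and T cell attracting chemokines, at 0.50, against 0.15 over the panel. The same lists had 1.81, 2.17, 1.75, 1.72 and 2.04 in the high-median group, against 1.50 over the panel. B cell and neutrophil markers, whose high-median values were 1.77 and 1.80, were at 0.01 and 0.05 in the low-median group. Both sets of differences share the sham tumors, and no test was made between them.

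**Figure D5:**
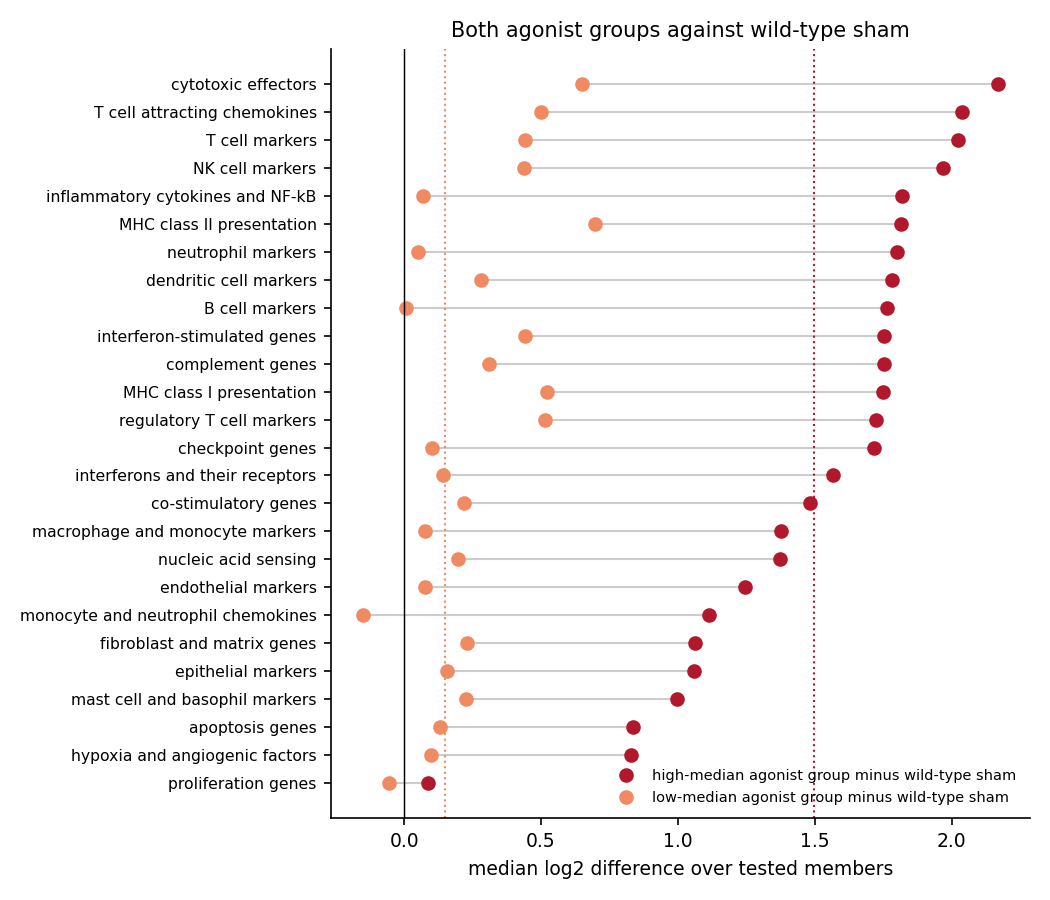
Median log2 difference from wild-type sham tumors over the tested members of each list, for the high-median group (red) and the low-median group (orange); dotted lines are the panel medians of 1.50 and 0.15. Low-median values reach 0.70 for MHC class II genes, and in both groups proliferation genes lie below their panel median.

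The comparison that the labels define, all 8 agonist tumors against the 9 wild-type sham tumors, was tested with limma on panel-centred log2 values. Of 689 probes 62 (9.0%) rose and 128 (18.6%) fell relative to the panel at a Benjamini-Hochberg adjusted p under 0.05. The calls come from contrasts that include the same agonist tumors, so they are not independent of the groups above. Without the 3 libraries written with 2 decimals limma called none in either direction, with 157 probes at an unadjusted p under 0.05, against 277 with all libraries. That fit has 5 agonist tumors, of which 3 are low-median, so the loss cannot be assigned to how the values were written. Of the 190 calls, 110 were kept whichever single library was left out.

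Among lymphocyte lists 7 of 19 T cell markers, 5 of 10 cytotoxic effectors and 5 of 14 NK cell markers rose and 1 NK marker fell, against 9.0% and 18.6% of all probes. Cd3g rose by 0.74 ± 0.21 (log2 ± SE, limma adjusted p = 0.0158, higher in 8 of 8 agonist tumors) and Gzma by 1.49 ± 0.44 (limma adjusted p = 0.019, 7 of 8). Of the genes named above as highest in the high-median group, which were chosen on the same tumors, Cd22 rose by 1.15 ± 0.34 (limma adjusted p = 0.0182) and Il7r by 1.01 ± 0.30 (limma adjusted p = 0.0199), both higher in 7 of 8 agonist tumors. Cd22 also passed the low-value filter through high-median tumors alone. Because of that choice these p-values are no separate support for either gene. Tnf was not called by limma, at 0.80 ± 0.53 (limma adjusted p = 0.264, 5 of 8). Of the 32 interferon-stimulated genes 4 rose, against 9.0% of all probes, and none fell.

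Among the genes named as lowest in the high-median group, likewise chosen on these tumors, Birc5 changed by -1.31 ± 0.27 (limma adjusted p = 0.00679) and was lower in 8 of 8 agonist tumors, and Dusp6 changed by -1.45 ± 0.38 (limma adjusted p = 0.0106) and was lower in 6 of 8. Among lists 5 of 8 proliferation genes, 6 of 16 apoptosis genes, 4 of 10 hypoxia and angiogenic factors, 3 of 8 epithelial markers and 4 of 20 macrophage markers fell, against 18.6% of all probes, which is close to the share of the macrophage markers. None of these lists had a member that rose. These falls are relative to the panel: without centring limma called 490 probes higher and 5 lower. Tmem173 was at -0.06 ± 0.23 (limma adjusted p = 0.869).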

How the data were processed

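Barcoded NanoString probes counted the RNA molecules of 21 whole tumors without amplification. The authors deposited normalised signal values on a linear scale, for which neither the labels nor the file headers record the software or the scaling. The values of a library are whole multiples of a step of 0.650 to 1.41, within 0.1 of a step for 99.6% to 100% of them; they were used as signal and no count test was run. The totals of 256573 to 763976 per library are estimates from that step, which no file states. The per-library files held the same values rounded. No column of another sample was present, 2 cells were blank (both Hif1a), and of 750 probes 727 matched the GRCm38.p6 reference table, 9 under a newer name (Sting1 for Tmem173). The headers of the gene name and class columns are swapped.

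A pseudocount of 1 was added before log2, so folds of low probes are understated, and 689 probes with at least 20 units in at least 4 libraries were kept. A probe high in the high-median tumors alone could pass this filter. The agonist libraries were split at a median of 110 over all probes. Differences are means of log2 values, errors between groups are standard errors from the 2 group variances, and no p-value is given for them. All 8 agonist libraries were tested against 9 wild-type sham libraries with limma 3.58.1 (R 4.3.3) on log2 values centred on each library's panel median, with 1 coefficient per labelled group, 3 in all, over all 21 libraries (eBayes with trend and robust, two-sided, Benjamini-Hochberg over 689 probes at 0.05). Where nothing says that libraries are separate animals, p-values measure the spread between these libraries, which may be technical. The script was tested on simulated data. Python 3.11.15 with pandas 2.3.3 and scipy 1.17.1 made the descriptions.

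Named genes are Tmem173, the 12 highest and 12 lowest relative differences among probes without overlap and with a mean of at least 50 in the higher agonist group, and the 2 members of each of 26 lists with the highest mean signal; others are said to have been chosen after values were seen, and some eligible genes are not reported here. The groups, lists and rules were chosen with earlier results of these data known. Levels were not compared between probes. Promoter sequences are those of RefSeq.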

Additional observations from a re-analysis of the deposited data

Results flagged for a closer look

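In 90 Dixon tests of the highest or lowest sample of a group, 5 passed the 95% critical value, and chance flags about 1 in 20. Agonist replicate 8, a high-median library, had the highest estimated total of its group, 763976 counts, and its 5 brightest probes held 34.2% of the signal. The step of agonist replicate 1, also high-median, was 1.41. Tnf in agonist replicate 2 lay at 3.06 on the log2 scale relative to the panel median of that library, far above the other 7 agonist tumors. Fez1 in STING-deficient sham replicate 1 lay at 0.43 on the same scale, apart from the other 3 tumors of its group.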

How the results depend on the processing

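The panel-wide difference depends on the scaling. The median difference between the high-median group and the low-median group, 1.25, was 0.12 with TMM scaling (30% of log ratios and 5% of levels trimmed) and 0.95 over probes with a mean of at least 100. That between the high-median group and wild-type sham tumors, 1.50, was 0.22 with TMM, 1.25 with a pseudocount of 10, 1.13 with the estimated counts before the authors' scaling, 1.33 without the libraries written with 2 decimals and 1.16 over probes of at least 100. That between the low-median group and wild-type sham tumors, 0.15, reversed to -0.058 with counts before scaling and to -0.0025 with TMM. The 321 probes wholly above became 30 with TMM and 121 over probes of at least 100. The 33 wholly above relative to the panel became 14 with a pseudocount of 10, 10 over probes of at least 100 and 191 without the libraries written with 2 decimals, and the 77 wholly below became 134 there. Leaving out 1 agonist library gave 41 to 78 above and 79 to 124 below; fewer libraries overlap less by construction. Of the 12 highest genes 5 stayed apart with a pseudocount of 10. All 24 stayed apart with TMM and whichever agonist library was left out, which is no check. They were chosen for not overlapping, and leaving out a library cannot add overlap. Centring takes out nearly all of a library's scaling. Over all settings 14 of 26 lists kept the sign of their median, among them B cell markers (0.25 to 1.16), neutrophil markers (0.32 to 1.08) and proliferation genes (-1.25 to -0.60). Without the libraries written with 2 decimals, 2 high-median tumors remain, and several list medians moved. That of inflammatory genes went from 0.35 to 1.09, of neutrophil markers from 0.64 to 1.08 and of co-stimulatory genes from 0.22 to 0.72. Complement genes went from 0.15 to -0.47 and MHC class I genes from 0.06 to -0.37.

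For agonist against wild-type sham tumors limma called 490 higher and 5 lower without centring. Without the agonist libraries written with 2 decimals it called 0 higher and 0 lower, with 157 probes at an unadjusted p under 0.05. Leaving out 1 library gave 36 (agonist replicate 8) to 102 (agonist replicate 2) higher and 84 (agonist replicate 1) to 151 lower. Jak1 (0.33), Ccl19 (0.074), Cd276 (0.039) and Hif1a (0.26) reversed without centring. The cause of these changes was not tested beyond the settings named. Replicate numbers did not pair the libraries: 2 of 8 same-numbered pairs of agonist and sham libraries correlated over 0.1 (range -0.20 to 0.29) and 0 of 8 correlated best with its own number. The fit with the replicate block called 50 higher and 95 lower. Subtraction of the near-background level, probes of at least 100 and the comparison with probes of like level were chosen after seeing the data. With 3 low-median libraries the spread of that group is poorly known, and values near 7 units are close to the lowest signal the panel gave.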
